A study of Mus musculus with 6 samples.

Results

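Among the peritoneal cells of this single-cell RNA-seq study, a group of B cells carried the immediate early transcripts *Egr3* and *Egr4*. They were picked out by counts alone. A cell was kept with at least 500 genes and at most 10% mitochondrial UMIs (unique molecular identifiers, each standing for 1 captured RNA molecule). A kept cell was taken as a B cell with at least 4 UMIs of *Cd79a* and *Cd79b* together, 0 of the macrophage genes *Csf1r* and *Adgre1* and 0 of the T cell genes *Cd3d* and *Cd3e*. It was taken as an Egr3/Egr4 B cell with at least 2 UMIs of *Egr3* and *Egr4* together. Of 7760 barcodes in the table, 7665 were kept, 2786 were B cells and 285 were Egr3/Egr4 B cells. They were compared with the 2297 B cells in which neither gene had a UMI (the comparison B cells), and 204 B cells with exactly 1 UMI were set aside.

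The study asked how peritoneal phagocytes respond to apoptotic cells, and the B cells came along with them. Peritoneal cells of 8 to 12 week old mice were lavaged, plated and washed to remove those that did not adhere, so the B cells analysed here are those that the wash left. There were 6 libraries, 1 for each genotype and condition, and each held the cells of 3 mice pooled. The strain was labelled C57BL/6 in all of them. The genotypes were MerTK +/+ and MerTK -/-, which lacks the apoptotic cell receptor MerTK, and the conditions were a media change only (control), 2 h and 6 h of co-culture with UV-killed GFP-expressing human Jurkat T cells at 5 per peritoneal cell. The table marks each barcode with a library number from 1 to 6, and these numbers were matched to no genotype or time. The cells were labelled as peritoneal macrophages as a whole. By the gates used here, 2786 of 7665 kept cells were B cells and 1897 were in the macrophage gate defined below, while 2556 were in no gate. The values below compare cells within each library number, and no comparison of genotypes or times was made.

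*Egr3* and *Egr4* encode zinc finger transcription factors of the early growth response family, whose genes are switched on within minutes to hours of a signal that reaches MAP kinases or calcineurin and whose transcripts decay quickly afterwards. In B cells such signals come from the antigen receptor, Toll-like receptors and other stimuli, and NF-κB, Myc and nuclear receptors of the NR4A family are induced by the same signals. The peritoneal cavity is rich in B-1 cells, a B cell lineage known for natural IgM and for secretion of interleukin 10, beside conventional B-2 cells, which carry IgD and CD23 (*Fcer2a*).

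The Egr3/Egr4 B cells were found in all 6 libraries, with 28 to 68 cells in each (median 45.5). They made up 10.2% of B cells over all libraries (exact binomial 95% interval 9.13 to 11.4%). By library number the share was 8.76%, 7.43%, 15.7%, 5.89%, 11.8% and 16.6% for numbers 1 to 6. The highest shares, in numbers 3 and 6, had intervals of 12.4 to 19.5% and 12.4 to 21.5%, above the interval of 3.95 to 8.41% in number 4. Intervals here and below cover counting error only and say nothing of the spread between mice.

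The share was also read at equal depth, since a cell with more UMIs has more chances to pass a gate. The median Egr3/Egr4 B cell had 8048 UMIs and 2222 genes, against 4877 UMIs and 1577 genes in the comparison B cells. Why the Egr3/Egr4 B cells were deeper was not tested. Every B cell with at least 2000 UMIs was thinned at random to 2000, which can only take UMIs away. Of these 2655 cells, 109 (4.11%) passed the gate. The shares by library number were then 3.52%, 2.74%, 4.03%, 2.65%, 4.88% and 10.6%, so that number 6 remained highest and number 3 lay among the others. The median share of mitochondrial UMIs was 3.05% in the Egr3/Egr4 B cells and 3.30% in the comparison B cells, and that of ribosomal protein genes was 32.5% and 35.4%.

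**Figure D1:**
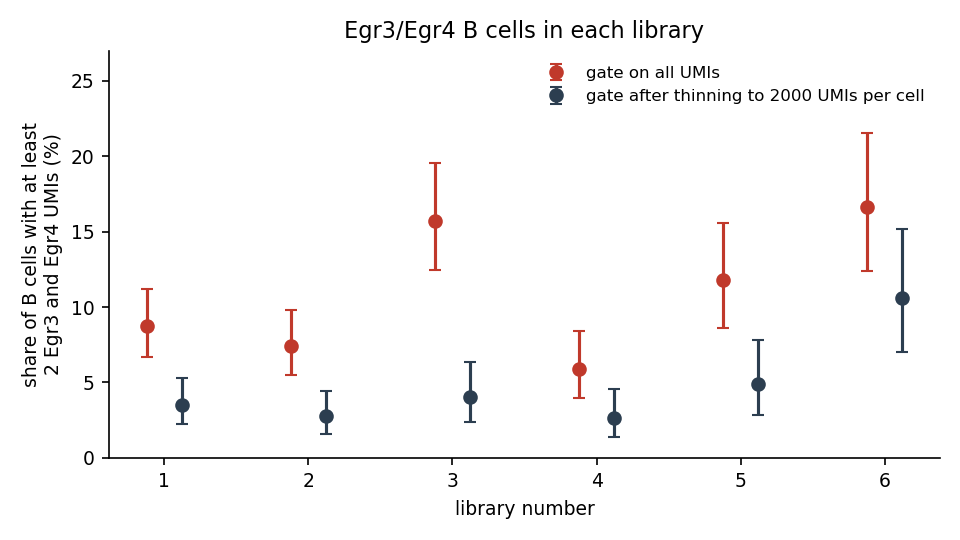
Share of B cells with at least 2 *Egr3* and *Egr4* UMIs (y axis, percent) in each library number (x axis), gated on all UMIs (red) or after thinning each cell to 2000 UMIs (dark), with exact binomial 95% intervals. Library number 6 is highest by both gates, at 16.6% and 10.6%.

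*Egr3* supplied most of the gate. Of the 285 cells, 236 had *Egr3* UMIs only, 48 had both genes and 1 had *Egr4* only. The cells had a median of 4 UMIs of the pair and at most 53. Exactly 2 were found in 92 cells, 3 or 4 in 67 and 5 or more in 126. Together they held 1494 of the 2671 *Egr3* UMIs and 272 of the 412 *Egr4* UMIs of all kept cells. These counts describe the selection and are no result of it. *Egr3* lies at chr14:70077203-70082614 (plus strand) and *Egr4* at chr6:85511121-85513589 (minus strand) of GRCm38.

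To compare levels at equal depth, all cells with at least 2000 UMIs were thinned to 2000, which left 283 Egr3/Egr4 B cells (27 to 68 in a library) and 2168 comparison B cells. UMIs were summed over the cells of a group in each library and are given as CPM (UMIs scaled to a common total), and the ratio of the groups was combined over the 6 libraries as a Mantel-Haenszel ratio, on the log2 scale. With 1 library per condition and cells that are not replicates, no p-value is given. A feature was called higher where it was at least 2-fold higher over all libraries and higher in each of the 6, and called lower by the mirrored rule. The 8 gate genes were left out. Of 5123 features with a mean of at least 20 CPM over both groups, 188 (3.67%) were called higher and 169 (3.3%) were called lower. The median log2 ratio over all of them was 0.01.

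The higher and lower calls rested on different counts in the Egr3/Egr4 B cells. By the rule itself, every higher gene has UMIs in these cells in every library. Of the 169 lower genes, 115 had 0 UMIs there in at least 1 library, which counts as lower, and 34 had 20 UMIs or more. Calls were read again in 5 other ways: with each cell scaled to the same total without a random draw, without thinning, with another draw, with the comparison B cells weighted to the depth of the Egr3/Egr4 B cells, and without library number 6. Of the 188 higher genes, 63 were called by all 5, among them 17 of the 20 with the largest ratios. Of the 169 lower genes, 15 were. The depth weights alone left 117 features called higher and 61 called lower.

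**Figure D2:**
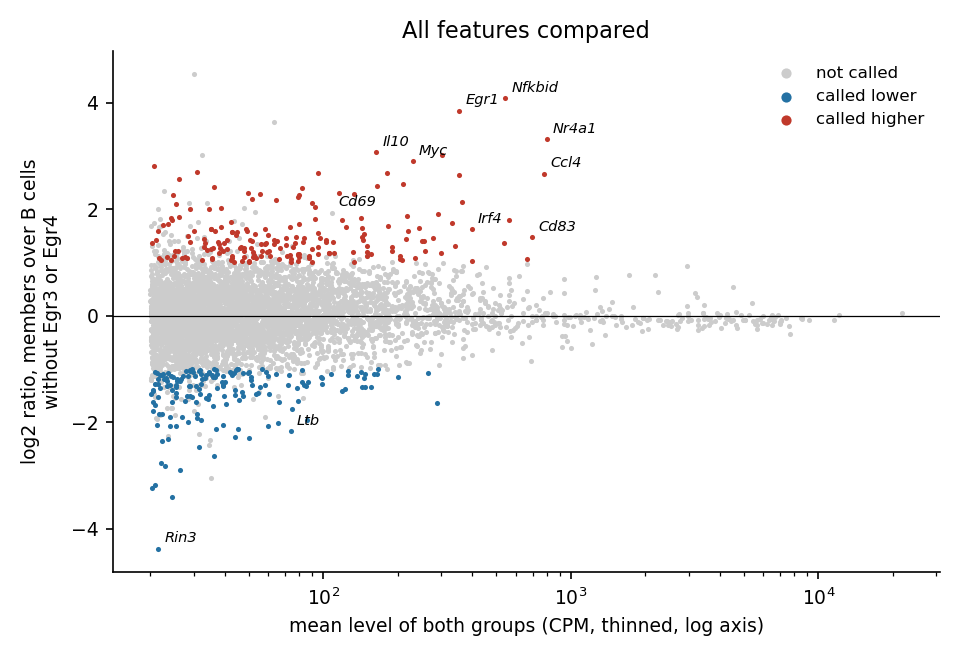
Log2 ratio of the Egr3/Egr4 B cells (members) over B cells with no *Egr3* or *Egr4* UMI (y axis) against the mean level of both groups in thinned CPM (x axis, log scale), 1 point per feature. The 188 features called higher (red) include *Nfkbid*, *Egr1* and *Nr4a1* far above the rest at high level, while the 169 called lower (blue) lie mostly at low level.

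Other immediate early genes were among the higher calls. Of 18 list members compared, 9 were called higher and none lower, with a median log2 ratio of 1.70. *Egr1*, the first-described member of the family, stood at 434 CPM in the lowest, 751 in the median and 805 in the highest library of the Egr3/Egr4 B cells, and at 19.2, 26.5 and 160 CPM in the comparison B cells. Its ranges did not overlap and its log2 ratio was 3.85 (3.59 to 4.10). *Egr2*, the fourth member, stood at 122, 300 and 565 CPM against 27.3, 34.6 and 98.0 CPM, a log2 ratio of 2.68 (2.38 to 2.99). The family members outside the gate were thus both called higher in cells picked by the other two.

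The NR4A receptors, orphan nuclear receptors used as reporters of antigen receptor signalling, showed the same order. *Nr4a1* (Nur77) stood at 1243, 1450 and 1767 CPM in the lowest, median and highest library, against 68.2, 113 and 386 CPM in the comparison B cells, and its log2 ratio was 3.31 (3.16 to 3.47). *Nr4a3* had 542 against 122 CPM over all libraries (log2 ratio 1.74, 1.54 to 1.93). *Nr4a2* had the larger ratio of 3.64 (3.06 to 4.23) but was higher in 5 of 6 libraries and was not called, since it had 0 UMIs in 1 library of the Egr3/Egr4 B cells. Without thinning it was higher in all 6, at a log2 ratio of 2.92.

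Other transcription factors of the list did not move as a block. *Junb* had 878 against 241 CPM (log2 ratio 1.80, 1.64 to 1.95), and *Ier2* (2.13), *Atf3* (2.41), *Klf10* (2.69) and *Zfp36l1* (1.36) were called higher too. *Atf3*, a stress-induced repressor, overlapped between the groups at 12.2 to 107 CPM against 5.57 to 25.6 CPM, and was not called without thinning. *Jun*, the AP-1 partner of *Junb* and *Fos*, had 23.0 against 64.1 CPM, a log2 ratio of -1.33 (-2.16 to -0.51) that was lower in 4 of 6 libraries and not called. *Fos* and *Fosb* were under the level compared, with 20 and 17 thinned UMIs in the Egr3/Egr4 B cells and 12 and 7 in the more numerous comparison B cells.

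Genes that damp these signals were mixed. Of 12 phosphatase and feedback genes compared, 3 were called higher and 2 lower (median log2 ratio 0.55). *Dusp2*, a nuclear MAP kinase phosphatase, had 367 against 52.8 CPM (log2 ratio 2.46), with libraries at 243 to 500 CPM against 15.0 to 193 CPM. *Nab2* and *Nab1*, co-repressors that bind Egr proteins, had log2 ratios of 2.40 (1.98 to 2.82) and 1.27 (0.74 to 1.80). *Cblb* and *Socs3* were called lower, at -1.05 and -1.25. With the depth weights neither was called and the list median was 0.19, and *Socs3* and *Nab1* were not called without thinning, nor *Nab1* with another draw.

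Genes of the NF-κB pathway were higher too. Of 16 members compared, 11 were called higher and none lower, and the median log2 ratio was 1.41. *Nfkbid* (IκBNS), a nuclear IκB protein needed for B-1 cell development and for *Il10* transcription, had the largest ratio of all called features. It stood at 704, 1059 and 1144 CPM in the lowest, median and highest library of the Egr3/Egr4 B cells and at 39.0, 52.1 and 124 CPM in the comparison B cells, and its log2 ratio was 4.09 (3.87 to 4.31). Every library of the first group thus lay above every library of the second. A thinned UMI of it was found in 56.2% (50.2 to 62.0%) of Egr3/Egr4 B cells and 6.92% (5.89 to 8.07%) of comparison B cells, or 81.4% and 14.8% without thinning. In cells of a T cell gate (at least 2 *Cd3d* and *Cd3e* UMIs, 0 of the B cell and macrophage gate genes) the thinned share of *Nfkbid* was 2.83%, and in cells of a macrophage gate (at least 2 *Csf1r* and *Adgre1* UMIs, 0 of the B and T cell gate genes) it was 18.1%. The median cell of these gates had 2684 and 5102 UMIs.

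Further NF-κB genes had smaller ratios. The inhibitors *Tnfaip3* (A20), *Nfkbia*, *Nfkbib* and *Nfkbie* had log2 ratios of 2.23, 1.58, 1.52 and 1.47. *Rel*, the subunit c-Rel that dominates in activated B cells, had 466 against 114 CPM (1.90, 1.68 to 2.12), with libraries at 354 to 644 against 97.0 to 206 CPM. *Traf1* and the anti-apoptotic *Bcl2a1b*, both targets of NF-κB, had 1.67 and 1.65. *Relb* (1.20), *Nfkbiz* (1.12) and *Nfkb1* (1.08) passed 2-fold by less, and their library ranges overlapped. Of the 11, *Nfkbid*, *Rel*, *Nfkbia*, *Tnfaip3*, *Traf1* and *Bcl2a1b* were called by all 5 other readings. *Bcl3*, another nuclear IκB protein, went the other way at -0.95 (-1.55 to -0.35) without reaching a call.

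The promoters of the called genes were searched for the letters of known sites. Promoters (250 bases before to 50 after the start, RefSeq, GRCm38.p6) were found for 145 of the 188 higher genes, 130 of the 169 lower genes and 3921 of the 5123 features compared. The 10-base κB consensus, searched on both strands, was present in 26 (17.9%) of the first, 17 (13.1%) of the second and 417 (10.6%) of the third, and in 8.18% of all 27025 promoters. The EGR consensus GCGNGGGCG was present in 13.8%, 8.46%, 10.9% and 5.55% of the same sets. The CArG box, the serum response factor site known from immediate early genes, was found in 3 promoters of the higher genes (2.07%). It was found in 0.769% of the lower genes, 1.38% of the features compared and 1.57% of all promoters. Matches describe the letters only, and the shares were not tested against each other. The promoters of *Nfkbid*, *Ccl3*, *Nab2*, *Junb*, *Irf4*, *Dusp2* and *Ppp1r15a* held no κB match, and that of *Fosl2* did. No promoter was on hand for *Egr1*, *Il10*, *Myc*, *Ccl4* and *Kdm6b*. *Rel*, *Egr2* and *Nr4a1* are shown because they are called genes of the lists above with a κB match. They are written from 5′ to 3′ on the strand of the gene with κB matches in capitals. In *Rel* (chr11:23770920-23771219, minus strand) and *Egr2* (chr10:67535249-67535548, plus strand) a pair of matches overlaps by all but 1 base and starts 92 and 117 bases before the start site, and in *Nr4a1* (chr15:101266596-101266895, plus strand) a single match spans the start. The last also holds 1 EGR match.
Rel: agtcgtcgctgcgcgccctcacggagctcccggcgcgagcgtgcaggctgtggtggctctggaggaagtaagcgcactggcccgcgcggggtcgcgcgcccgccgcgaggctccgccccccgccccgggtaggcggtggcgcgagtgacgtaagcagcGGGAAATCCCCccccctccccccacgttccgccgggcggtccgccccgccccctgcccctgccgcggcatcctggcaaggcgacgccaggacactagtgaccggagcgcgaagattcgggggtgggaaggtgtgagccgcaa
Egr2: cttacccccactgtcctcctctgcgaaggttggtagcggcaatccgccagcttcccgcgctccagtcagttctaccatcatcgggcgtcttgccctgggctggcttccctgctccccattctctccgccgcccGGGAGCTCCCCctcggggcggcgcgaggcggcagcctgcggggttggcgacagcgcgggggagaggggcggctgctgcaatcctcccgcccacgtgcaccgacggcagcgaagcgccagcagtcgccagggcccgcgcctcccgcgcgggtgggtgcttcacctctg
Nr4a1: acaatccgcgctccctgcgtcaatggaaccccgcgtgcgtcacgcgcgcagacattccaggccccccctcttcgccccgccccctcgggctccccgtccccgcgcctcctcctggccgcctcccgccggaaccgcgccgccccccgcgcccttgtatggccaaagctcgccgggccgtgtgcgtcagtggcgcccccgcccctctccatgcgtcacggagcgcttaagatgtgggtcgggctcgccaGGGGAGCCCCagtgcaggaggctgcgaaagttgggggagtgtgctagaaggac

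Cytokine and chemokine genes were higher in these cells, with 6 of 8 compared called higher and 1 lower (median log2 ratio 1.80). *Il10*, which encodes the anti-inflammatory cytokine interleukin 10, stood at 154, 310 and 435 CPM in the lowest, median and highest library, against 11.0, 29.0 and 105 CPM in the comparison B cells. The ranges did not overlap and the log2 ratio was 3.07 (2.74 to 3.40). A thinned *Il10* UMI was found in 29.0% (23.8 to 34.6%) of Egr3/Egr4 B cells and 3.64% (2.90 to 4.52%) of comparison B cells, or 43.5% and 8.18% without thinning. The thinned share was 0.57% in the T cell gate and 0.33% in the macrophage gate, lower than in either group of B cells.

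The chemokines *Ccl3* and *Ccl4*, which attract T cells and monocytes, were carried by few cells in large amounts. *Ccl3* had 548 against 55.6 CPM (log2 ratio 3.02, 2.77 to 3.27) and *Ccl4* 1373 against 179 CPM (2.67, 2.52 to 2.81). A thinned *Ccl4* UMI was found in 24.03% of Egr3/Egr4 B cells and 3.74% of comparison B cells, and single cells held up to 668 and 1090 UMIs of it before thinning. Its libraries ran from 329 to 2904 CPM in the Egr3/Egr4 B cells and overlapped those of the comparison B cells (26.9 to 476 CPM), although the level was higher within each library. Both chemokines are also macrophage transcripts here, with a thinned share of 30.5% for *Ccl3* and 27.5% for *Ccl4* in the macrophage gate. With the depth weights the log2 ratio of *Ccl4* was 1.41 and that of *Ccl3* 1.76, and both were still called.

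The remaining cytokines had fewer UMIs. *Tnf* (36 thinned UMIs, log2 ratio 2.02), *Vegfa* (19 UMIs, 1.59) and the macrophage growth factor *Csf1* (125 UMIs, 1.42) were called higher with overlapping library ranges, and none of them was called by all 5 other readings. *Tnf* and *Csf1* lost the call with the depth weights, and *Vegfa* in the other 4. *Ltb*, whose product lymphotoxin β organises lymphoid tissue, was the exception at 23.0 against 124 CPM (log2 ratio -2.17, -2.97 to -1.37). No thinned UMI was found in the Egr3/Egr4 B cells for *Il6*, *Csf2*, *Cxcl10*, *Il2* and *Il17a*.

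**Figure D3:**
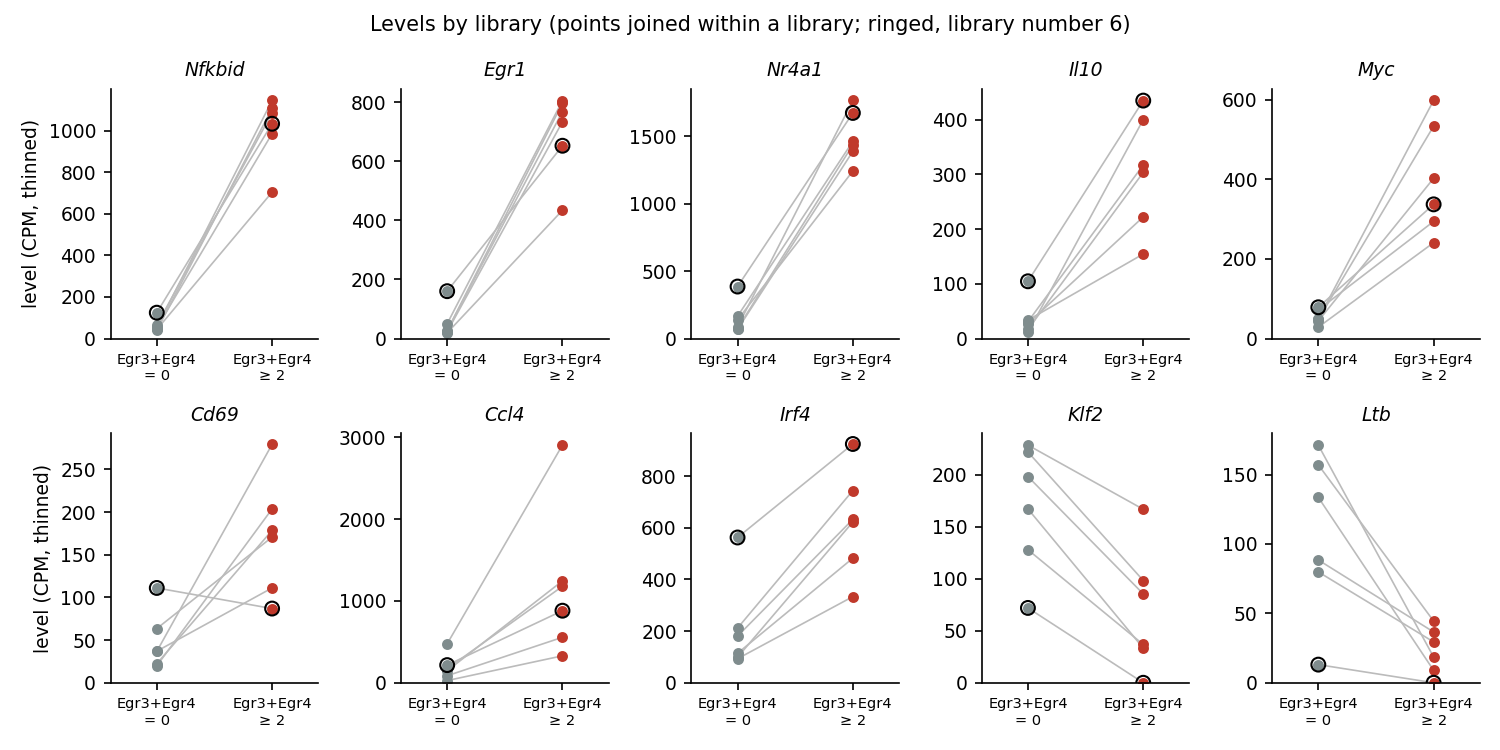
Levels of 10 genes in thinned CPM (y axes, linear, from 0) in B cells with no *Egr3* or *Egr4* UMI (grey) and in Egr3/Egr4 B cells (red), with a line joining both groups of each of the 6 libraries. Library number 6 (ringed) has the highest comparison value for *Nfkbid*, *Egr1*, *Nr4a1*, *Il10*, *Myc*, *Cd69* and *Irf4* and is the library in which *Cd69* was not higher, at 87.0 against 111 CPM.

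*Myc* and genes of cell growth lay on the higher side. All 28 genes of this list had a log2 ratio above 0 (median 0.80), and 7 were called higher. *Myc*, the transcription factor that drives growth ahead of division, stood at 241, 370 and 598 CPM against 28.5, 48.6 and 78.4 CPM (log2 ratio 2.90, 2.63 to 3.16), with no overlap. Amino acid transport by *Slc7a5* and *Slc3a2*, which form one transporter, was at 1.48 (1.06 to 1.90) and 1.12 (0.86 to 1.37), and the transferrin receptor *Tfrc* at 1.36. The nucleolar genes *Nolc1* and *Gnl3* (1.19 and 1.15) and the helicase *Eif4a1* (1.03) made up the rest. With the depth weights only *Myc* and *Slc7a5* of 29 compared were called, and the median was 0.46. Without library number 6, 11 of 27 were called.

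Cell cycle genes were spread around 0. Of 7 compared, *Ccnd2*, the G1 cyclin of B cells, was called higher at 509 against 170 CPM (2.46-fold), and the median log2 ratio was 0.11. Its libraries overlapped, at 278 to 685 against 118 to 428 CPM, and with the depth weights it was not called. *Ccnd1*, *Ccne2* and *E2f1* had no thinned UMI in the Egr3/Egr4 B cells.

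Surface activation genes were less clear-cut, with 1 of 13 called higher (median log2 ratio 0.77). *Cd83*, a glycoprotein that stabilises MHC class II on activated B cells, stood at 704, 1049 and 1326 CPM against 226, 355 and 614 CPM (log2 ratio 1.47, 1.34 to 1.61). *Cd69*, an early activation marker that retains lymphocytes in tissue, stood at 87.0, 175 and 279 CPM against 19.9, 36.9 and 111 CPM (log2 ratio 1.93, 1.58 to 2.29), but it was higher in 5 of 6 libraries only and was not called. It was higher in all 6 without thinning (log2 ratio 2.197) and when cells were scaled without a draw (2.28). *Ctla4* (2.03) and *Icam1* (1.35) were likewise higher in 5 of 6 libraries. *Cd86* and *Cd40*, the costimulatory pair, had ratios of 0.44 and 0.21.

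The larger ratios also held genes outside these themes. *Kdm6b*, a demethylase of H3K27, had 627 against 81.4 CPM (log2 ratio 2.64, 2.43 to 2.85). *Ppp1r15a* (GADD34), which reverses the block of translation under stress, had 2.67 (2.25 to 3.08). *Rilpl2* had 2.43, the AP-1 subunit *Fosl2* 2.30, the GTPase activator *Tagap* 2.30, the clock gene *Per1* 2.28, the scaffold gene *Grasp* 2.80 and the stress gene *Sesn2* 2.56. *Grasp* and *Sesn2* rest on 21 and 25 thinned UMIs. *Atf3*, *Klf10* and *Sesn2* are the 3 of the top 20 that were not called by all 5 readings.

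The levels of some genes followed the number of *Egr3* and *Egr4* UMIs in a cell, as a description of how the gate cuts through the B cells. *Nfkbid* had 53.7 CPM with 0 UMIs of the pair, 277 with 1, 698 with 2, 765 with 3 or 4 and 1409 with 5 or more. The B cells just outside the gate, with 1 UMI, were therefore above those with 0 and below those just inside it. *Egr1* (36.9, 152, 363, 432 and 1020 CPM), *Myc* (49.8, 203, 269, 341 and 548 CPM) and *Il10* (27.7, 150, 170, 227 and 429 CPM) had the same order. *Irf4* and *Ccl4* differed, being about as high with 1 UMI (549 and 1311 CPM) as with 5 or more (631 and 1448 CPM). *Ccnd2* had 544 CPM with 1 and 488 CPM with 5 or more. Above 1 UMI, *Ccl3* (676, 447 and 508 CPM), *Egr2* (302, 212 and 393 CPM) and *Tnfaip3* (115, 152 and 139 CPM) did not rise in order either. Median depth was 7752 UMIs with 1 and 8254 with 2, so the step across the gate was taken at similar depth, whereas cells with 0 were shallower.

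**Figure D4:**
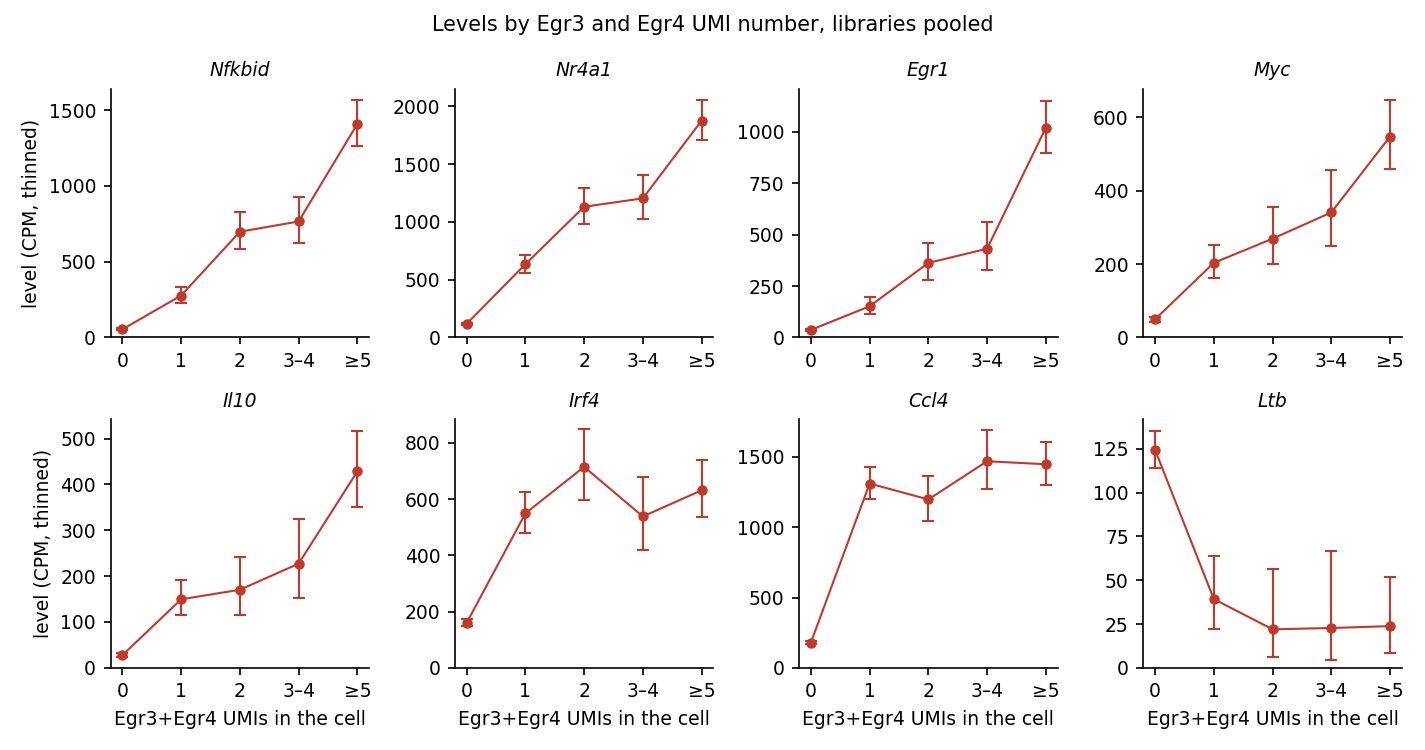
Levels of 8 genes in thinned CPM with exact Poisson 95% intervals (y axes, linear, from 0) in B cells grouped by their *Egr3* and *Egr4* UMIs (x axes), with the libraries pooled. *Nfkbid*, *Nr4a1*, *Egr1*, *Myc* and *Il10* are highest with 5 or more UMIs, *Irf4* and *Ccl4* level off from 1 UMI on, and *Ltb* is lower in all classes from 1 UMI on.

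Genes of differentiation were mixed. *Irf4*, the factor that acts in activated B cells and in plasma cell fate, had 636 against 160 CPM (log2 ratio 1.62, 1.44 to 1.81), and its AP-1 partner *Batf* had 145 against 40.4 CPM (log2 ratio 1.81). *Prdm1* (Blimp-1), which establishes plasma cells, had 6 thinned UMIs and was called lower at -1.47 (-2.66 to -0.28), a call made in none of the 5 other readings. Thus 2 of 10 genes of the plasma and germinal centre list were called higher and 1 lower, with a median of -0.06.

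Genes of the resting B cell were on the lower side. The quiescence list had 3 of 10 called lower and none higher (median log2 ratio -0.55), namely *Klf2* (61.8 against 183 CPM, log2 ratio -1.38), its target *S1pr1*, the receptor for exit from tissue (-1.10), and *Txnip*, a brake on glucose uptake (-1.31). With the depth weights none of them was called and the median was -0.44. *Klf2* was lower in 5 of 6 libraries without thinning and then not called. It stood at 0 to 167 CPM against 71.9 to 228 CPM, overlapping between the groups while lower within each library. The B-2 list had 3 of 12 called lower, among them *Ighd* (-1.43, -1.92 to -0.93) and the complement regulator *Cd55* (-2.28, -3.30 to -1.25). *Ighd* moved to -0.57 with the depth weights and only *Cd55* of the 3 stayed called, which in turn was not called with another draw. The median of the B-2 list was -0.18, with 9 genes below 0 and 3 above. *Fcer2a* went the other way, at 30.0 against 14.5 CPM, but had 0 thinned UMIs in the Egr3/Egr4 B cells of library numbers 4 and 5.

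Antigen receptor signalling genes were lower at equal depth, but this did not hold with depth weights. Of 24 compared, *Syk* (-1.10), *Fcgr2b* (-1.10), *Btk* (-1.16), *Blnk* (-1.33) and *Rasgrp3* (-1.84) were called lower and none higher, with a median of -0.46. With the comparison B cells weighted to the depth of the Egr3/Egr4 B cells, 0 of 23 were called and the median was -0.01. B cell identity genes were present, with *Ms4a1* (CD20) at 214 against 384 CPM. Their ratios also moved with depth, with a median of -0.69 and *Fcrla* called lower (-1.34), against -0.26 and no call with the weights. Of the gate genes, *Cd79b* stood at 244 against 797 CPM and *Cd79a* at 1208 against 1594 CPM. Both groups were gated on at least 4 UMIs of these genes before thinning, and the comparison B cells were shallower. These values therefore depend on the gate and are no result.

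The lower genes that were called in all 5 readings were *Ltb*, *Il16*, *Id3*, *Mylip*, *Abi3*, *Trim34a*, *Trim5*, *Pml*, *Irf2*, *Phf11b*, *Zc3h12d*, *Arhgap45*, *Rabep2*, *Mat2b* and *Cybc1*, a set named after its values were seen. *Il16*, which encodes a T cell attractant, had 21.2 against 98.2 CPM (log2 ratio -2.07, -2.90 to -1.23). *Id3*, an inhibitor of E proteins, had 14.1 against 64.6 CPM (-2.05). *Mylip*, a ubiquitin ligase of the LDL receptor, had 15.9 against 84.4 CPM (-2.30). *Irf2*, a factor that competes with the interferon-induced *Irf1*, was at -1.75, and *Pml*, which organises nuclear bodies, at -2.14.

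The 10 lower genes with the smallest ratios have to be read with their counts. *Rin3* (-4.38), *Cdkn2d* (-3.41), *N4bp2l1* (-3.24), *Pik3ip1* (-3.19), *Haao* (-2.90), *Senp7* (-2.82), the antisense RNA *D730005E14Rik* (-2.76), *Abi3* (-2.64), *Trim34a* (-2.46) and the lincRNA *Gm15228* (-2.35) had 1 to 5 thinned UMIs each in the Egr3/Egr4 B cells. Without thinning they had 22 to 37 UMIs and log2 ratios of -1.13 to -1.85, nearer to 0 in each case. Of the 10, *Abi3* and *Trim34a* were called by all 5 readings. *Pik3ip1*, an inhibitor of PI3 kinase, and *N4bp2l1* were not called without thinning.

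The cells were also split by the B-2 genes, although a cell without a UMI of these is not thereby shown to be a B-1 cell and the split moves with depth. No UMI of *Fcer2a* or *Ighd* was present in 63.5% (57.6 to 69.1%) of them and 57.2% (55.1 to 59.2%) of the comparison B cells, although they were deeper. At 2000 UMIs the shares were 86.2% and 76.5%. At that depth *Ighd* was found in 9.89% and 22.3% of cells, whereas *Fcer2a* went the other way, at 3.89% and 2.40%. *Nfkbid* had a log2 ratio of 3.93 (3.65 to 4.20) among cells without such a UMI and 4.44 (4.04 to 4.84) among those with one. *Il10* had 3.03 and 3.15, and *Myc* 2.73 and 3.18. *Nr4a1* had 3.02 (2.83 to 3.20) and 3.93 (3.65 to 4.22). Each of these was higher in all 6 libraries in both strata, and whether the strata differ was not tested.

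Of 12 B-1 genes compared, *Plscr1* alone was called higher, at 145 against 34.4 CPM (log2 ratio 2.11, 1.71 to 2.50), and none lower (median 0.00). *Zbtb32*, a B-1 regulator, had 143 against 87.6 CPM (0.52, 0.17 to 0.87). *Bhlhe41*, which B-1 cells need, had 3 thinned UMIs against 132 and was under the level compared. Without thinning it had 47 against 436 UMIs, a log2 ratio of -0.85 (-1.28 to -0.42). Receptor variable genes of the phosphatidylcholine-binding B-1 clones were scarce. *Igkv14-126* had a thinned UMI in 4 of 283 Egr3/Egr4 B cells (1.41%) and in 77 of 2168 comparison B cells (3.55%), and *Ighv11-2* in 2 and in 55. The immunoglobulin constant genes were all 6 below 0 (median -0.71), with *Ighd* called, and *Ighm* had 1760 against 2105 CPM (-0.28, -0.38 to -0.19).

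The remaining lists had few calls. Of 10 heat shock and handling genes, *Gadd45b* (2.28), *Dnajb1* (1.63) and *Ddit3* (1.39) were called higher, the median was 0.49, and *Hspa1a* and *Hspa1b* had 0 thinned UMIs. Without thinning only *Gadd45b* of these was called. Of 15 antigen presentation genes, *Ciita* was called lower (-1.31) and the median was -0.13. The call was not made without thinning, with another draw or with the depth weights, and with these weights the median was 0.08. Of 8 survival and death genes, *Bcl2a1b* was called higher and the median was 0.04.

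**Figure D5:**
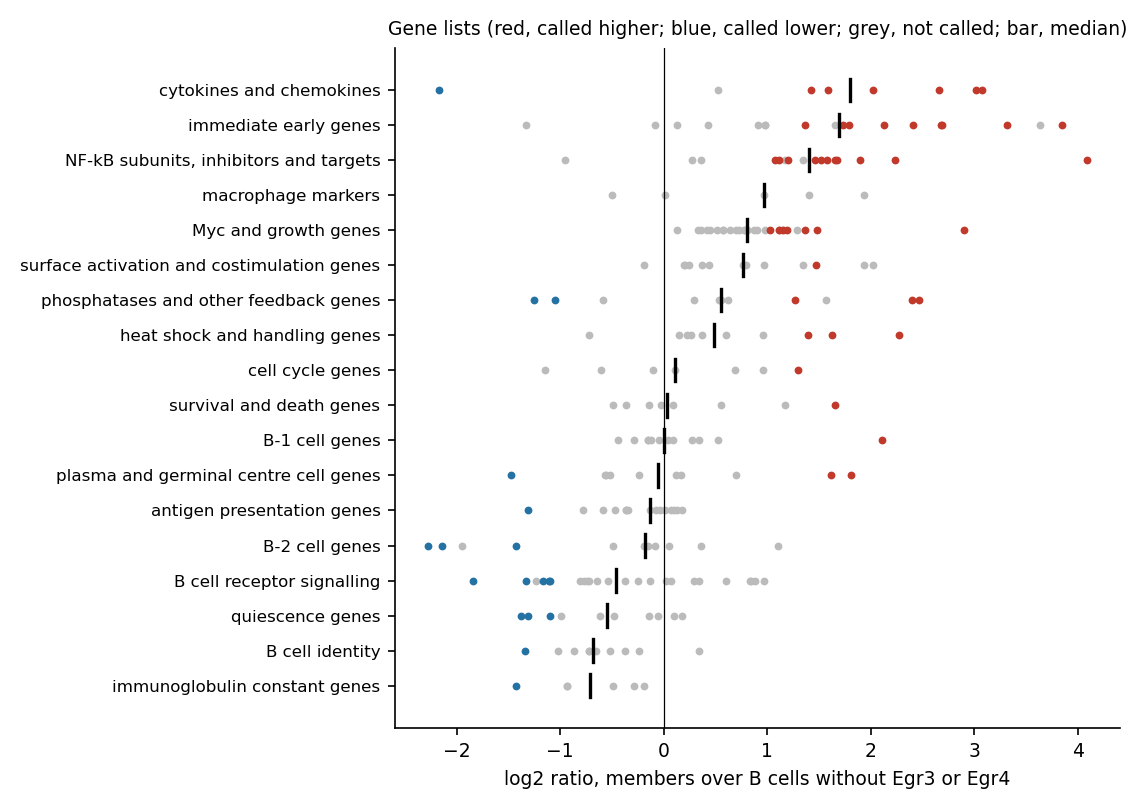
Log2 ratio of the Egr3/Egr4 B cells (members) over B cells with no *Egr3* or *Egr4* UMI (x axis) for every compared gene of the 18 lists with at least 4 genes compared (rows), 1 point per gene, red where called higher and blue where called lower, with a black bar at the median. The cytokine, immediate early and NF-κB lists have medians of 1.80, 1.70 and 1.41, and the immunoglobulin constant list has the lowest of those plotted at -0.71.

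Markers of other cells were present at low levels. Of 16 macrophage markers 5 were compared and none was called, with a median log2 ratio of 0.97 and 4 of 5 above 0, among them *Lyz2* (1.94), *Fn1* (33.6 against 16.4 CPM) and *Cd68* (0.97). *Apoe* went the other way at 253 against 406 CPM (log2 ratio -0.50, -0.75 to -0.25) and was lower in 5 of 6 libraries. The median was -0.34 without cells that had a UMI of *Lyz2*, *C1qa*, *C1qb*, *Trac* or *Nkg7*, and *Cd68* was called higher without library number 6. The summed level of all 16 was 596, 685 and 1704 CPM in the lowest, median and highest library of the Egr3/Egr4 B cells and 691, 765 and 899 CPM in the comparison B cells, with *C1qc*, *Fcgr1*, *Timd4* and *Alox15* at 0 in the former. *Lyz2* was at 79.5 against 26.3 CPM, higher in 3 of 6 libraries, and a thinned UMI of it was in 3.89% and 3.51% of cells. Of its 45 thinned UMIs in the Egr3/Egr4 B cells, 43 were in cells with 5 or more *Egr3* and *Egr4* UMIs. Its level was 171 CPM there, against 5.49 CPM with 2 and 7.58 CPM with 3 or 4. *Pf4* had 70 UMIs before thinning, 61 of them in 1 cell. Leaving out the cells with a UMI of *Lyz2*, *C1qa*, *C1qb*, *Trac* or *Nkg7* gave 218 higher and 206 lower calls. Summed T cell markers were 37.0 to 89.3 against 23.6 to 75.2 CPM and higher in 6 of 6 libraries, with 5 of 11 at 0, and summed NK cell, dendritic cell, and mast cell and granulocyte markers reached at most 48.8 CPM in a library of the Egr3/Egr4 B cells. The part of these markers in the results was not tested. A doublet caller marked 2 of the Egr3/Egr4 B cells and 3 of the comparison B cells. Of 28 barcode sequences shared between libraries, 1 belonged to an Egr3/Egr4 B cell.

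Library number 6 stood apart. Its B cells were the shallowest (median 4767.5 UMIs in Egr3/Egr4 B cells and 3301 in comparison B cells), and its comparison B cells were the highest for *Nfkbid* (124 CPM), *Egr1* (160 CPM), *Nr4a1* (386 CPM) and *Irf4* (562 CPM). Without it 281 features were called higher and 239 lower, and the log2 ratios of *Nfkbid*, *Il10* and *Cd69* were 4.37, 3.53 and 2.44. The rule then asks for 5 libraries, as it does without any other library. Leaving out each of the others gave 175 to 228 higher and 174 to 210 lower calls. How far the rule adds to the increase was not tested.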

How the data were processed

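The authors deposited one matrix of UMI counts, not normalized, with genes in rows and barcodes in columns, for 6 libraries made with a 10x Genomics 5′ kit. Per the study's methods, reads were aligned with STAR in Cell Ranger to the mouse (mm10) and the human genome, and reads mapped to mouse were used. The submitters' processing notes name Cell Ranger 2.2 and Seurat 3.0, and the methods give other versions of both. The annotation is not given in the sources used here. Libraries held 4234786 to 10287079 UMIs. Library numbers were not matched to samples.

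Members and gene lists were chosen with earlier results of these data known. Each cell with at least 2000 UMIs was thinned to 2000 without replacement (seed 1), counts were summed per group and library, and Mantel-Haenszel ratios with Greenland-Robins 95% intervals, exact Poisson intervals for CPM and exact binomial (Clopper-Pearson) intervals for shares were computed in Python 3.11.15 with numpy 2.4.6 and scipy 1.17.1. The ratio code was run on simulated Poisson counts with known fold changes. Those counts had no added spread between cells, so the run does not show how well the intervals or calls hold here. Named genes were *Nfkbid*, *Il10*, *Myc* and *Cd69*, the 20 higher and 10 lower calls with the most extreme ratios, and genes of the lists. Doublets were called with Scrublet in scanpy 1.11.5 (expected rate 0.01) and kept. Free RNA was not removed, and strand was not considered for overlapping genes. Gene positions are from GENCODE on GRCm38, and promoters from RefSeq. Alternatives were other gates, depths, draws, filters, thresholds and strata, and leaving out each library. Each cell scaled to the same total with no draw was an alternative chosen after seeing the data. Some genes of the lists are not reported here by name.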

Additional observations from a re-analysis of the deposited data

Results flagged for a closer look

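Cells outside the B cell gate also carried the gate genes. Of 4879 kept cells outside it, 183 (3.75%, 3.24 to 4.32%) had at least 2 *Egr3* and *Egr4* UMIs, and no comparison above uses them. The macrophage gate held 52 of them among 1897 cells (2.74%). In the T cell gate it was 0 of 426 cells, a count that allows at most 0.704%. The other 131 lay in no gate, and 69 of those had 1 to 3 *Cd79a* and *Cd79b* UMIs with none of the macrophage or T cell gate genes, while 17 had at least 4 *Cd79a* and *Cd79b* UMIs together with a *Csf1r* or *Adgre1* UMI.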

How the results depend on the processing

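The log2 ratios of 31 named genes were recomputed 699 times in all, with 0 changes of sign and 586 values within the 95% interval of the value reported. All of these genes but *Cd69* were among the calls with the most extreme ratios of this same comparison. Most settings also reuse the same cells. A change of sign was therefore unlikely from the choice of genes, and the 0 is no test of the other calls. Of 414 recomputed medians of 18 lists, 22 changed sign, in 6 lists. These were the B-1 list (-0.24 to 0.49), antigen presentation (-0.22 to 0.09), cell cycle (-0.21 to 0.29), macrophage markers (-0.34 to 1.83), the plasma and germinal centre list (-0.50 to 0.03) and survival and death (-0.01 to 0.58), and no direction is read from them. The share of 10.2% became 6.93% with at least 3 UMIs, 1.72% where both *Egr3* and *Egr4* were required and 4.11% when gated after thinning. Without each library in turn it was 9.22 to 11.1%, the higher calls were 175 to 281 and the lower calls 174 to 239. Counts of higher and lower calls were 117 and 61 with depth weights, 343 and 318 at 1.5-fold, 61 and 44 at 3-fold, and 118 and 49 with a mean of at least 50 CPM. The lower calls were 414 with a mean of at least 5 CPM, 260 where both genes were required (directions read in 4 libraries with at least 5 such cells), 75 at 4000 UMIs and 78 without thinning. The higher calls were 105 among cells with a *Fcer2a* or *Ighd* UMI. Another draw called 153 higher and 163 lower, of which 103 and 76 were shared with the draw reported. Both groups were compared within each library, and without that stratum 224 features were called higher and 197 lower. Of the 169 lower calls, 19 rest on 5 or fewer UMIs.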

Other observations

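Egr3/Egr4 B cells often carried several activation genes at once. At 2000 UMIs per cell, no UMI of *Nfkbid*, *Nr4a1*, *Il10*, *Myc* or *Cd69* was found in 35 of 283 cells (12.4%), against 1622 of 2168 comparison B cells (74.8%). UMIs of 3 of the 5 genes were found in 90 Egr3/Egr4 B cells (31.8%) and 32 comparison B cells (1.48%), and of all 5 in 10 and 0 cells.

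Within the Egr3/Egr4 B cells, shares of other genes were set beside each other for cells with and without an *Il10* UMI. *Myc* was found in 58.5% (47.1 to 69.3%) of the 82 cells with *Il10* and 33.8% (27.3 to 40.8%) of the 201 without, *Nfkbid* in 69.5% and 50.7%, and *Irf4* in 78.0% and 57.7%. *Cd69* was found in 14.6% (7.80 to 24.2%) and 24.4% (18.6 to 30.9%), with overlapping intervals. In the comparison B cells, *Myc* was found in 16.5% of the 79 cells with *Il10* and 7.13% of the 2089 without. *Nfkbid* was found in 26.6% and 6.18% there, and *Irf4* in 55.7% and 18.8%. Higher shares of these genes beside *Il10* were thus not particular to the Egr3/Egr4 B cells. *Cd69* had the opposite order in the comparison B cells, at 12.7% (6.24 to 22.0%) and 5.46% (4.52 to 6.52%). The libraries were pooled for these shares, and the differences were not tested.

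*Mir155hg*, the host transcript of miR-155, was among the higher genes that all readings called. A thinned UMI was found in 28.6% of Egr3/Egr4 B cells, 8.35% of comparison B cells, 3.96% of cells in the macrophage gate and 1.98% of those in the T cell gate, at a log2 ratio of 1.83.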
